A study of Rattus norvegicus with 16 samples.

Results

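The genes described here encode the enzymes that attach glutathione, glucuronic acid or sulphate to drugs, hormones, bile pigments and reactive metabolites. They were chosen by symbol, as the glutathione S-transferases (GST, cytosolic Gsta, Gstk, Gstm, Gsto, Gstp and Gstt and microsomal Mgst), the UDP-glucuronosyltransferases (UGT) and the cytosolic sulphotransferases (SULT). Of the 22517 symbols in the files, 52 belonged to these families by name, and 41 of them reached 1 FPKM or more in at least 4 of the 16 libraries. FPKM counts fragments per kilobase of transcript, scaled to the mapped fragments of the library. The 41 genes were 19 of 22 GST, 11 of 18 UGT and 11 of 12 SULT symbols. The minimum fell in a gap, since Gsto2 and Sult1d1 reached it in 7 libraries each, just inside, and Gstm3 and Ugt1a9 in 2 each, just outside. Gstm3, Gstm6, Gstm6l, Ugt1a2, Ugt1a3, Ugt1a8, Ugt1a9, Ugt2a1, Ugt3a2, Ugt8 and Sult6b1 were left out.

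RNA was sequenced from liver and epididymal fat of 8 male ZDF/GmiCrl-fa/fa rats, obese Zucker rats that lack a working leptin receptor. All of them ate Purina 5008 feed for 2 weeks, from 9 to 11 weeks of age. The 4 groups were liver of rats given R-α-lipoic acid in the feed (LA liver), liver of pair-fed rats without it (PF liver), fat of the LA rats (LA fat) and fat of the PF rats (PF fat), with 4 libraries each. Lipoic acid holds 2 sulphur atoms and serves mitochondrial dehydrogenases as a cofactor. The fa/fa genotype and the feed were common to every group, so nothing here describes lean rats or another diet, and pair feeding gives control rats the amount that the treated rats eat. Each rat gave both tissues, and the labels do not tell which liver and fat libraries are from the same animal.

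The 3 families carry out phase II of detoxification. GSTs join reactive electrophiles to glutathione, UGTs in the endoplasmic reticulum join phenols, steroids and bilirubin to glucuronic acid from UDP-glucuronate, and SULTs in the cytosol transfer sulphate from PAPS (3′-phosphoadenosine 5′-phosphosulphate). The conjugates are water-soluble and leave the cell through ABC transporters. Hepatocytes are the main site of all of this, and many of the genes are under the control of xenobiotic sensors such as NRF2, the aryl hydrocarbon receptor, CAR and PXR.

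Library depth differed modestly. Read totals are unknown, but from the steps between low values 1 fragment was worth 0.722 to 0.894 in LA liver, 0.853 to 1 in PF liver, 0.739 to 0.866 in LA fat and 0.774 to 0.961 in PF fat, relative to PF liver replicate 1. Libraries of 1 group had correlations of 0.971 to 0.994 over all genes, and no pair of libraries was identical. The adipocyte genes Adipoq, Plin1 (listed as Plin) and Lep were listed at 0 in all 8 liver libraries. All 9 adipocyte markers together summed to 486 to 979 FPKM in LA liver, 375 to 830.2 FPKM in PF liver, 36335 to 42185 FPKM in LA fat and 34416 to 39321 FPKM in PF fat. The list holds the gluconeogenic gene Pck1, so its liver sums are not a measure of fat cells. Of the 9, 5 averaged 1 FPKM or more in LA liver and 3 in PF liver. Summed hepatocyte markers (10 of 12 in the files) were 27733 to 34024 FPKM in LA liver and 36796 to 45345 FPKM in PF liver, although Alb and Tf were listed at 0 in every liver library. An exact 0 in these files can therefore be a failed estimate. In bulk tissue, fewer cells of a type and less RNA per cell cannot be told apart.

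In liver every class was led by a few genes. Mgst1, a membrane-bound GST and peroxidase, held 40.6% of the summed GST level in liver, ahead of Gsta3 with 15.7% and Gstm2 with 10.2%. Mgst1 averaged 3339.6 ± 246 FPKM in LA liver and 4223 ± 378 FPKM in PF liver (SD, n = 4 each, as for all means here). The UGT level was led by Ugt2b (48.3%), Ugt2b36 (13.1%) and Ugt2b5 (11.3%), members of the subfamily that glucuronidates steroids and bile acids. Ugt2b stood at 1191 ± 140.0 FPKM in LA liver and 1130.1 ± 82.7 FPKM in PF liver. Among the SULTs, the oestrogen sulphotransferase Sult1e1 held 48.0%, the hydroxysteroid sulphotransferase Sult2a1 14.0% and the phenol sulphotransferase Sult1a1 13.7%. Sult1e1 averaged 2229.8 ± 235 FPKM in LA liver and 2352 ± 318 FPKM in PF liver. These are closely related gene copies, and how the counting divided reads among them is not given, so the level of a single Gsta, Gstm, Ugt2b, Sult1c or Sult2a gene is uncertain.

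The order in fat was another. The GST level there was again led by Mgst1 (61.5%), followed by Gsta3 (6.10%) and Gstp1 (6.09%). Ugt1a6 (57.5%) and Ugt1a7c (25.3%), which glucuronidate small and planar phenols, made up most of the UGT level, with Ugt2b at 8.04%. Sult1a1 alone held 82.2% of the SULT level, ahead of Sult5a1 (6.48%) and Sult1e1 (5.51%). Mgst1 averaged 1897 ± 235 FPKM in LA fat and 2112 ± 404 FPKM in PF fat, and Sult1a1 187 ± 31.4 FPKM in LA fat and 165 ± 14.9 FPKM in PF fat.

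Class sums separated the tissues far more for UGTs and SULTs than for GSTs. Summed GST levels were 8979 ± 640 FPKM in LA liver, against 3179 ± 390 FPKM in LA fat, and 9650 ± 781 FPKM in PF liver, against 3342 ± 500 FPKM in PF fat. Summed UGT levels were 2455 ± 186 FPKM in LA liver, against 66.5 ± 8.31 FPKM in LA fat, and 2350 ± 197 FPKM in PF liver, against 70.8 ± 9.65 FPKM in PF fat. Summed SULT levels were 4394 ± 466 FPKM in LA liver, against 221 ± 27.3 FPKM in LA fat, and 5156 ± 941 FPKM in PF liver, against 206 ± 28.3 FPKM in PF fat. LA and PF libraries overlapped in every class sum in both tissues.

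**Figure D1:**
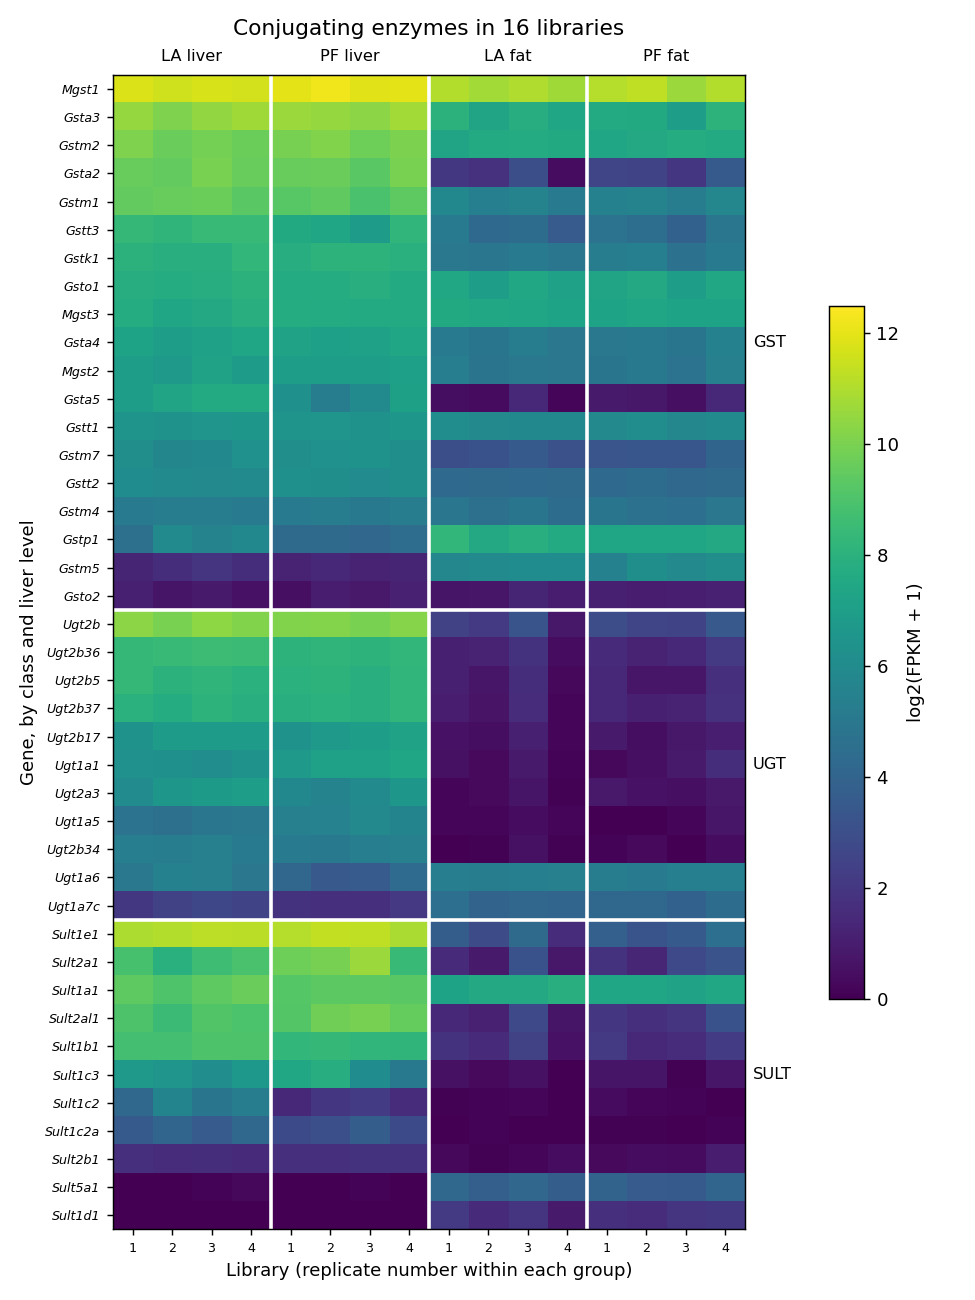
Level of each of the 41 genes (rows, by class and liver level) in each library (columns, in the order LA liver, PF liver, LA fat, PF fat), as log2(FPKM + 1) by colour from dark (0) to bright (high). Most UGT and SULT genes are bright in liver and dark in fat, Mgst1 and Sult1a1 are bright in both tissues, and Gstp1, Gstm5, Ugt1a7c and Sult5a1 are brighter in fat.

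Between tissues, liver was compared with fat within each feed on log2(FPKM + 1) with limma, calling genes at an adjusted p under 0.05 and a log2 fold change over 1 in size. In PF rats 30 of the 41 genes were higher in liver and 6 were lower, in a comparison where 47.4% of all genes were called (11.1% higher, 36.3% lower). The tissues did not overlap for 40 of them, against 80.2% of all genes. The higher genes were 12 of 19 GSTs, 9 of 11 UGTs and 9 of 11 SULTs. These counts are a description, because 10 members had reached the minimum of 1 FPKM only through liver and 3 (Gsto2, Sult1d1 and Sult5a1) only through fat, so a difference in that direction follows largely from the choice of members. Of the 28 members that reached it in at least 4 libraries of each tissue, 20 were higher in PF liver and 4 lower. In LA rats 29 of 39 genes tested were higher and 4 lower, where 46.4% of all genes were called (10.5% higher, 36% lower), and 37 did not overlap, against 79.9% of all genes. Of the same 28 members 19 were higher and 3 lower in LA liver. The median log2 fold change of all genes was -0.66 in PF rats and -0.65 in LA rats. After centring each library on its median, the split of all genes moved to 2064 higher and 2253 lower in PF rats and 1985 higher and 2292 lower in LA rats, and that of the conjugating enzymes to 34 higher and 5 lower in PF rats and 33 higher and 4 lower in LA rats.

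Sult2a1 sulphates bile acids and dehydroepiandrosterone. On the log2(FPKM + 1) scale Sult2a1 and its neighbour Sult2al1 had the largest liver excess in PF rats, with log2 fold changes of 7.42 and 7.42 (limma, SE 0.47 and 0.28). Sult2a1 was at 854, 988, 1555 and 355 FPKM in PF liver, against 2.51, 1.52, 5.66 and 8.21 FPKM in PF fat. For the UGTs the largest differences were those of Ugt2b, at 7.23, and Ugt2b5, at 6.89. For the GSTs they were those of Gsta2, at 6.95, and Gsta5, at 5.24, alpha-class enzymes known for conjugating lipid peroxidation products and, for rat Gsta5, aflatoxin epoxide. Because of the added 1 FPKM these values understate the change of genes that are low in fat, and the order of the genes depends on it. By the ratio of PF means, Sult1c3 (242) exceeded Sult2a1 (210) and Sult2al1 (201). Likewise Ugt2b34 (228) and Ugt1a5 (226) exceeded Ugt2b5 (200) and Ugt2b (167).

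The 6 genes lower in PF liver than in PF fat came from every class, 4 of them (Gstm5, Gstp1, Ugt1a7c and Ugt1a6) at the minimum in both tissues. Gstm5, a mu-class enzyme, was at 1.29, 1.66, 1.28 and 1.41 FPKM in PF liver, against 43.4, 74.1, 57.7 and 72.4 FPKM in PF fat, 43.9 times higher in fat by the means. Gstp1, the pi-class enzyme that in rat liver is sparse in normal hepatocytes and known as a marker of preneoplastic foci, was at 18.8, 18.9, 16.3 and 20.9 FPKM in PF liver, against 163, 166, 161 and 188 FPKM in PF fat (log2 fold change -3.11, SE 0.10, limma adjusted p = 1.14e-10). Sult5a1 stood at 0.0213 FPKM on average in PF liver, against 13.0 ± 2.60 FPKM in PF fat. Sult1d1, a sulphotransferase of catechols in mouse, was listed at 0 in all 8 liver libraries, where a 0 can be a failed estimate, and averaged 2.17 ± 1.04 FPKM in LA fat and 2.50 ± 0.503 FPKM in PF fat. Ugt1a7c had a log2 fold change of -2.38 and Ugt1a6 of -1.43, although after median centring the Ugt1a6 value was -0.76 and was no longer called.

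Under LA the difference between tissues for Ugt1a6 was -0.14 on the log2 scale (limma adjusted p = 0.331), and after median centring it was 0.53 in the other direction. Ugt1a6 averaged 36.7 ± 7.20 FPKM in LA liver, against 40.0 ± 1.86 FPKM in LA fat, and 14.3 ± 4.55 FPKM in PF liver, against 39.0 ± 2.75 FPKM in PF fat. Gstp1, Gstm5, Ugt1a7c and Sult5a1 were lower in LA liver than in LA fat, with log2 fold changes of -2.31, -4.35, -1.77 and -3.85.

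Many members were barely present in fat. Of 35 genes at 10 FPKM or more in liver, 18 were under 2% of their liver level in fat by the median over the 8 fat libraries (2 GSTs, 9 UGTs and 7 SULTs), with medians of 0.172% to 0.592%. The other 17 genes were at 6.70% or more, so no gene lay between. The limit of 2% was set after these values were seen. In the same libraries 8 hepatocyte markers had medians of 0.370% to 0.613%. The median share over the 18 genes was 0.365%, 0.272%, 0.822% and 0.0809% in LA fat replicates 1 to 4, and 0.586%, 0.444%, 0.469% and 0.993% in PF fat replicates 1 to 4. Over the 8 hepatocyte markers it was 0.356%, 0.299%, 0.834% and 0.104% in LA fat, and 0.579%, 0.439%, 0.465% and 0.974% in PF fat. Both series put PF fat replicate 4 highest and LA fat replicate 4 lowest. Among the 18 genes, 14 were highest in PF fat replicate 4 and 16 were lowest in LA fat replicate 4. PF fat replicate 4 also held epididymal epithelium markers, which summed to 9.63 FPKM there (nearly all of it Lcn5), to 0.00838 FPKM in PF fat replicate 2 and to 0 in the other fat libraries. The part of liver-type or epididymal RNA in the fat values of these genes was not tested.

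**Figure D2:**
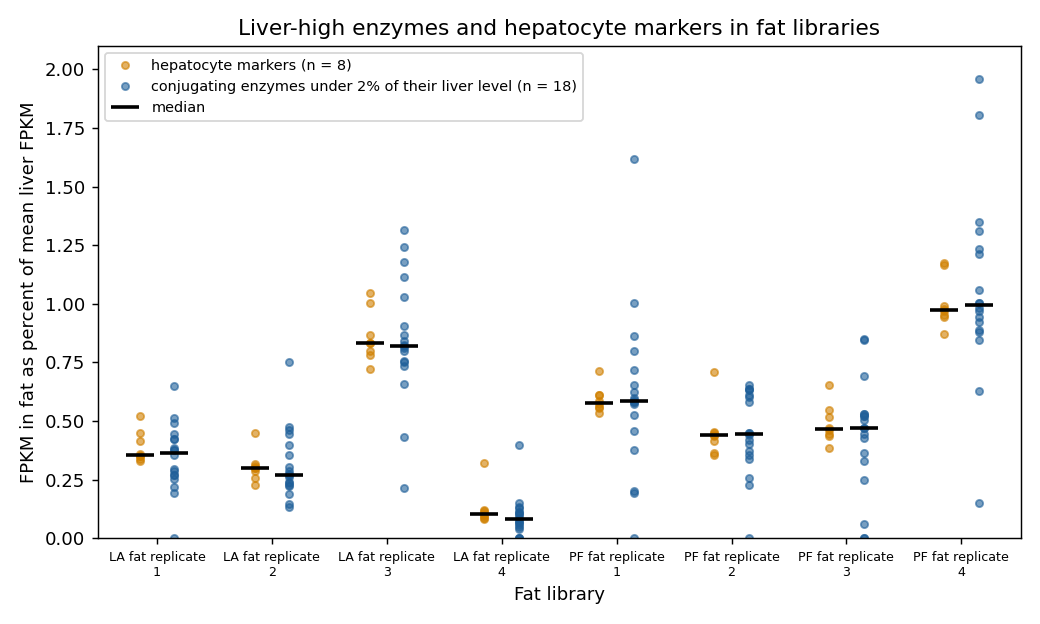
FPKM in each fat library (LA fat and PF fat replicates 1 to 4) as a percentage of the mean liver FPKM, for 8 hepatocyte markers and for the 18 conjugating enzyme genes under 2% of their liver level, with points for genes and bars for medians. Both medians move together over the libraries and are lowest in LA fat replicate 4 (0.104% and 0.0809%) and highest in PF fat replicate 4 (0.974% and 0.993%).

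The liver feed comparison asked which conjugating enzymes differed between LA and PF rats. Of 38 members tested with limma, 6 were higher and 3 lower at an adjusted p under 0.05 (23.7%), in a comparison where 4.48% of all 9710 genes were called (2.27% higher, 2.21% lower). They were 2 of 18 GSTs (Gstp1 and Gsta5, higher), 4 of 11 UGTs (Ugt1a6 and Ugt1a7c higher, Ugt1a1 and Ugt1a5 lower) and 3 of 9 SULTs (Sult1c2 and Sult1b1 higher, Sult2al1 lower). The difference in share between classes was not tested. The median log2 fold change was 0.04 over the members and -0.002 over all genes. Groups did not overlap for 9 members, against 12.3% of all genes. The number of members called was 5 without LA replicate 2, 3 or 4 or PF replicate 2. Gsto2 and Sult5a1 were under the minimum in liver and not tested, and neither was Sult1d1, with its listed zeros.

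**Figure D3:**
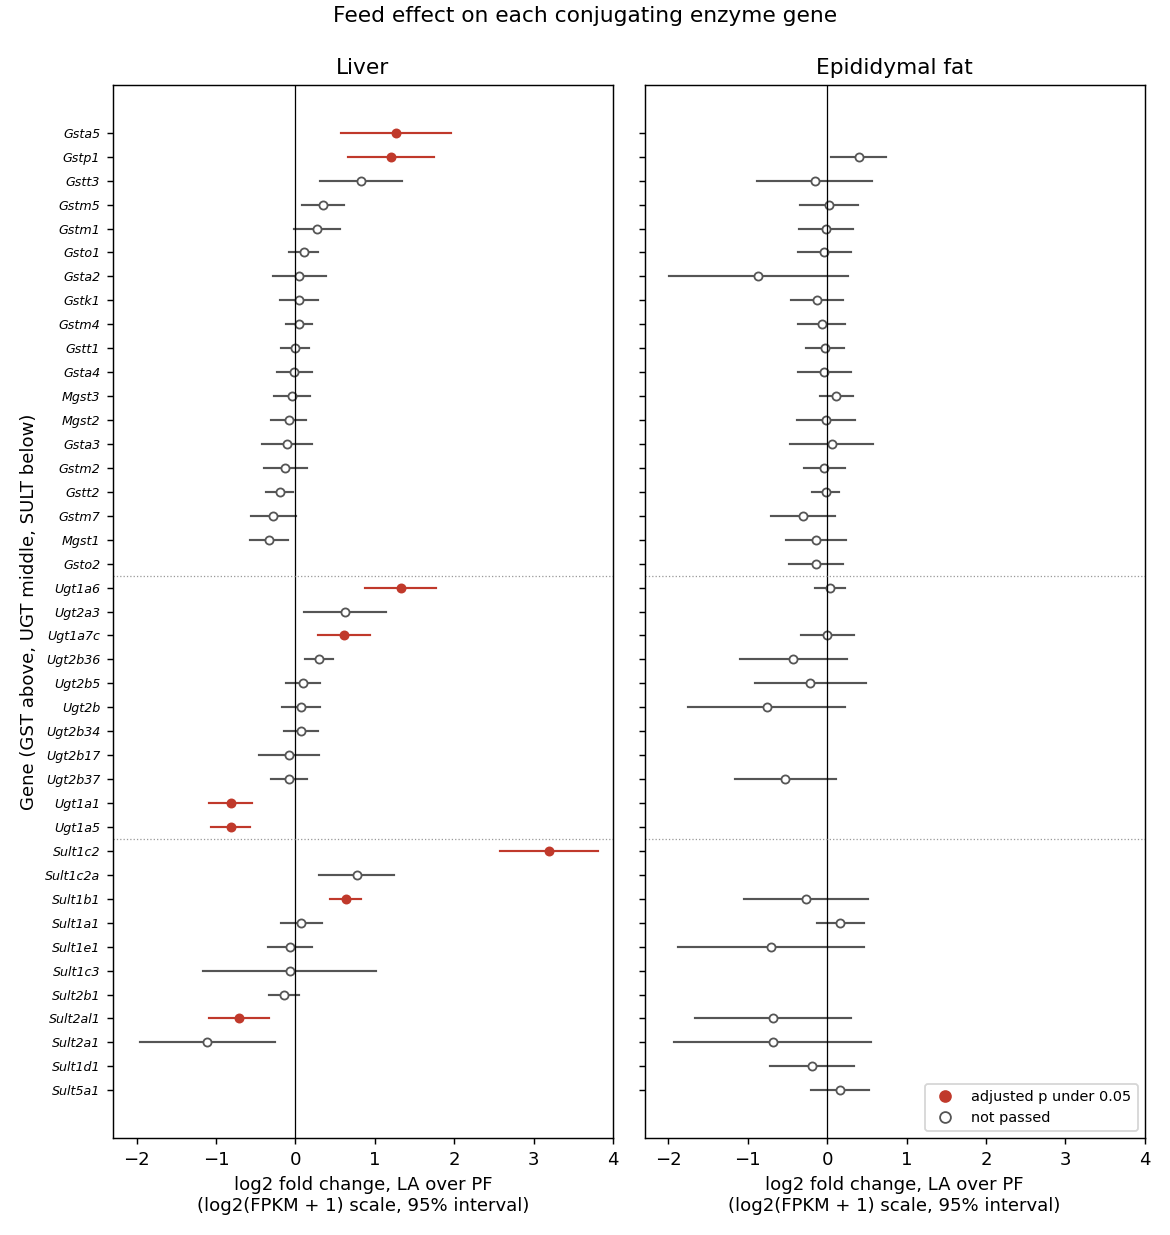
Log2 fold change of LA over PF on the log2(FPKM + 1) scale, with its 95% interval as a line, for each member tested in liver (left) and epididymal fat (right), with genes called in red. In liver Sult1c2 stands apart at 3.20 and Ugt1a1 and Ugt1a5 lie opposite Ugt1a6 and Ugt1a7c, while in fat no member is called.

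Promoters of 4 of the genes are shown because their liver levels moved by feed in different directions or, for Sult1c2, by the most. Each is the stretch of 250 bases before the gene start in RefSeq (GRCr8), 5′ to 3′ on the gene's strand: Gstp1 at chr1:210769706-210769955 (minus strand), Sult1c2 at chr9:7436731-7436980 (plus strand), Ugt1a6 at chr9:96194768-96195017 (plus strand) and Ugt1a1 at chr9:96248893-96249142 (plus strand). Capitals mark matches to the 3 motifs named next.
Gstp1: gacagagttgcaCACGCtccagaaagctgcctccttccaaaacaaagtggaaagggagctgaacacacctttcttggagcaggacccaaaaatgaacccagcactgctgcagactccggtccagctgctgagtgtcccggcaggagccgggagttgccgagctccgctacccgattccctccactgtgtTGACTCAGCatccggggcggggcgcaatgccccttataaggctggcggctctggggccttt
Sult1c2: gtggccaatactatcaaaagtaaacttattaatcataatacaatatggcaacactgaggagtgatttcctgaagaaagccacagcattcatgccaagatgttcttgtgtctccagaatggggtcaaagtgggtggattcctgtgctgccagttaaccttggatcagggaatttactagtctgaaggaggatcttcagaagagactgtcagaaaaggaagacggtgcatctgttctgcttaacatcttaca
Ugt1a6: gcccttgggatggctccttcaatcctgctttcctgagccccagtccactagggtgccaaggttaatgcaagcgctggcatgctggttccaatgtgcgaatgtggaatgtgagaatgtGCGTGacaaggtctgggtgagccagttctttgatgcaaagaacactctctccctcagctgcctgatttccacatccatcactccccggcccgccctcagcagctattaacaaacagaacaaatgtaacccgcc
Ugt1a1: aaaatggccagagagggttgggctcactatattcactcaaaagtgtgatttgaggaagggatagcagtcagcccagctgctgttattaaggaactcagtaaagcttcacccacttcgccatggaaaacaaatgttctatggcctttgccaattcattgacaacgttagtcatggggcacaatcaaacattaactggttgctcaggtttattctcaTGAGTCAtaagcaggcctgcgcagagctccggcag
Both strands were searched for the antioxidant response element core TGACNNNGC, which NRF2 binds, the xenobiotic response element core GCGTG, which the aryl hydrocarbon receptor binds, and the AP-1 site TGANTCA. In Gstp1 the first and the third overlapped at -61 from the gene start, and the xenobiotic core lay at -238 on the reverse strand (CACGC). The Ugt1a6 window held the xenobiotic core at -133, the Ugt1a1 window the AP-1 letters at -35, and the Sult1c2 window none of the 3. Of all 33469 promoters of this length, 10.1% held the antioxidant core, 25.9% the xenobiotic core and 6.34% the AP-1 site. Of the 36 members with a window the numbers were 4, 9 and 4. Beside Gstp1 the antioxidant core was held by Gsta3, Gstm5 and Gstm7. Their log2 fold changes by feed in liver were -0.11, 0.35 and -0.28, none called. A match is a description of the letters and was not related to any measured binding.

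Sult1c2, a 1C-subfamily sulphotransferase, had the largest rise of all genes tested. It was at 17.5, 48.7, 28.4 and 37.9 FPKM in LA liver replicates 1 to 4, against 1.65, 2.89, 3.73 and 2.05 FPKM in PF liver replicates 1 to 4. All LA livers were above all PF livers, and the means were 33.1 ± 13.3 FPKM in LA liver and 2.58 ± 0.923 FPKM in PF liver, a ratio of 12.8 (log2 fold change 3.20, SE 0.28, limma adjusted p = 0.000283). LA replicate 1 was the lowest of its group and LA replicate 2 the highest. The neighbouring genes Sult1c2a and Sult1c3 gave no call. Sult1c2a was at 10.8, 15.7, 11.1 and 18.0 FPKM in LA liver, against 6.08, 7.38, 11.9 and 5.99 FPKM in PF liver, where PF replicate 3 reached into the LA range (log2 fold change 0.77, SE 0.21, limma adjusted p = 0.0675). The Sult1c3 difference was -0.07 with a 95% interval of -1.17 to 1.02, which takes in both 0 and the Sult1c2a difference.

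Sult1b1, which sulphates thyroid hormones and small phenols, was at 432, 439, 521 and 506 FPKM in the LA livers, against 313, 320.4, 298 and 289 FPKM in the PF livers. The groups did not overlap for this gene, with means of 475 ± 45.7 FPKM in LA liver and 305 ± 14.0 FPKM in PF liver (log2 fold change 0.63, SE 0.09, limma adjusted p = 0.00338). Its call was lost when all 16 libraries shared 1 model (adjusted p = 0.286). Sult2al1, of the hydroxysteroid sulphotransferases, fell: it was at 507, 371, 553 and 492 FPKM in the LA livers, against 574, 878, 965 and 752 FPKM in the PF livers. The groups did not overlap (log2 fold change -0.71, SE 0.17, limma adjusted p = 0.0421), but PF replicate 1 came near the LA range and the call was lost without any 1 of LA replicates 1 to 4 or PF replicates 2 to 4 (adjusted p up to 0.109), with no filter on low values (0.0978) and in the model of all 16 libraries (0.403). Sult2a1 was at 461, 242, 398 and 477 FPKM in the LA livers, against 854, 988, 1555 and 355 FPKM in the PF livers, where PF replicate 4 lay among the LA livers (log2 fold change -1.11, SE 0.38, limma adjusted p = 0.136). The abundant Sult1e1 and Sult1a1 had differences of -0.07 (95% interval -0.35 to 0.21) and 0.07 (-0.18 to 0.33).

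The Ugt1a genes moved in opposite directions in liver. In RefSeq (GRCr8) Ugt1a7c, Ugt1a6, Ugt1a5 and Ugt1a1 overlap on chromosome 9, each with a first exon of its own joined to exons that all of them share. Ugt1a6 was at 31.3, 43.9, 41.9 and 29.8 FPKM in LA liver replicates 1 to 4, against 16.3, 10.1, 11.0 and 19.8 FPKM in PF liver replicates 1 to 4. Every LA liver was above every PF liver, with means of 36.7 ± 7.20 FPKM in LA liver and 14.3 ± 4.55 FPKM in PF liver (log2 fold change 1.33, SE 0.20, limma adjusted p = 0.00554). Ugt1a7c, low in liver, was at 3.03, 4.30, 5.47 and 4.91 FPKM in LA liver, against 2.50, 2.16, 2.21 and 3.16 FPKM in PF liver. Here LA replicate 1 lay below PF replicate 4 (log2 fold change 0.62, SE 0.15, limma adjusted p = 0.0421), and the call was lost without LA replicate 2, 3 or 4 or PF replicate 1, 2 or 3 (adjusted p up to 0.105) and with no filter on low values (0.0987).

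Ugt1a1, the enzyme that glucuronidates bilirubin, was at 80.4, 75.1, 69.0 and 81.5 FPKM in the LA livers, against 104, 140.2, 142 and 159.7 FPKM in the PF livers. All LA livers were below all PF livers, and the group means were 76.5 ± 5.74 FPKM in LA liver and 136 ± 23.4 FPKM in PF liver (log2 fold change -0.81, SE 0.12, limma adjusted p = 0.00526). Its call was lost in the model of all 16 libraries (adjusted p = 0.0754). Ugt1a5 was at 26.1, 23.4, 28.8 and 30.8 FPKM in the LA livers, against 42.6, 45.7, 58.2 and 49.0 FPKM in the PF livers. It too separated the groups (log2 fold change -0.82, SE 0.11, limma adjusted p = 0.00328). Reads from the shared exons cannot be assigned to 1 of these genes, so the size of each change is uncertain. Of the abundant Ugt2b genes none passed: Ugt2b36 was higher without overlap but at log2 fold change 0.30, SE 0.08, limma adjusted p = 0.0622, and the Ugt2b difference was 0.07 (95% interval -0.16 to 0.31).

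Gstp1 was at 23.4, 60.8, 47.3 and 56.9 FPKM in LA liver replicates 1 to 4, against 18.8, 18.9, 16.3 and 20.9 FPKM in PF liver replicates 1 to 4. Each LA liver was above each PF liver, LA replicate 1 by little and the other LA livers by far. The means were 47.1 ± 16.8 FPKM in LA liver and 18.7 ± 1.88 FPKM in PF liver, a ratio of 2.51 (log2 fold change 1.20, SE 0.25, limma adjusted p = 0.0208, exact permutation p = 0.0286, two-sided, with no smaller value possible for 4 against 4). The call was lost without LA replicate 2, 3 or 4 or PF replicate 1, 2 or 3 (adjusted p up to 0.0645) and with no filter on low values (0.0612), and held without LA replicate 1 (log2 fold change 1.50, adjusted p = 0.000294). Gsta5 was at 129, 157, 201 and 202 FPKM in the LA livers, against 75.2, 38.1, 60.7 and 135 FPKM in the PF livers. LA replicate 1 lay below PF replicate 4 (log2 fold change 1.26, SE 0.31, limma adjusted p = 0.0486), and the call was lost in 9 alternatives (adjusted p up to 0.110), which were each single library left out other than PF replicate 4, a pseudocount of 0.1 and no filter on low values.

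The other GSTs did not pass. Gstt3, a theta-class gene, was at 321, 285, 352 and 338 FPKM in the LA livers, against 194, 162, 115 and 301 FPKM in the PF livers. PF replicate 4 alone lay in the LA range, and the adjusted p was 0.0721 with it and 0.00915 without it (limma). Mgst1 was at 3628, 3077, 3448 and 3206 FPKM in the LA livers, against 4096, 4779, 3932 and 4083 FPKM in the PF livers, with all LA livers below all PF livers but a difference of only -0.34 (limma adjusted p = 0.108). The GST level without Mgst1 was 5639 ± 458 FPKM in LA liver and 5427 ± 593 FPKM in PF liver. For the abundant Gsta2, Gsta3 and Gstm2 the differences were 0.05, -0.11 and -0.13, with 95% intervals of -0.29 to 0.38, -0.42 to 0.21 and -0.39 to 0.14.

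**Figure D4:**
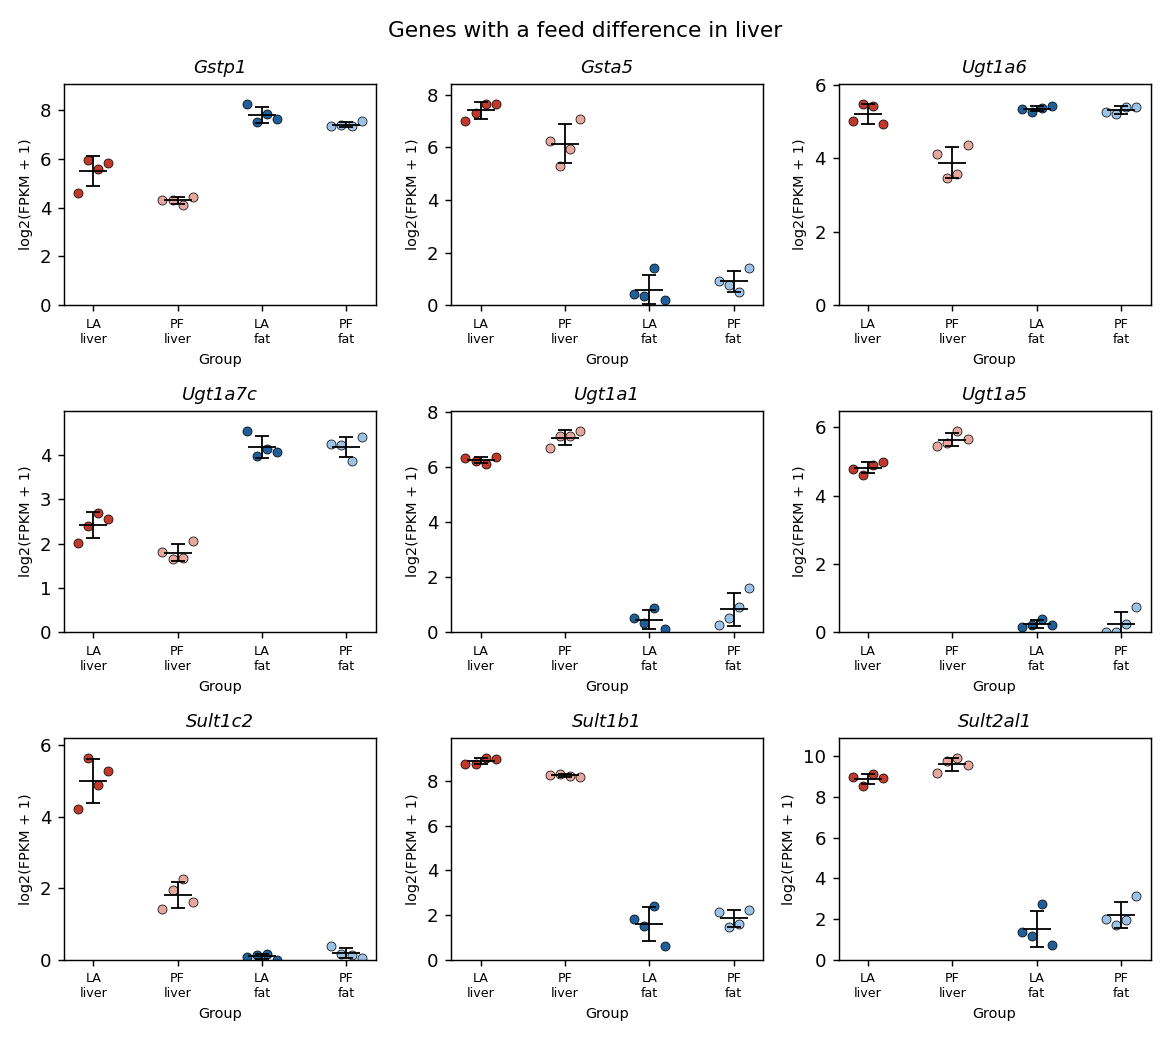
Log2(FPKM + 1) of the 9 members called in liver, with a point for each library of LA liver, PF liver, LA fat and PF fat, and a line and bars for the group mean ± SD. LA and PF livers do not overlap for Sult1c2, Sult1b1, Sult2al1, Ugt1a6, Ugt1a1, Ugt1a5 and Gstp1, and for Gsta5 and Ugt1a7c LA replicate 1 lies below PF replicate 4.

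Some cell type markers moved with feed in liver, where 4.48% of all genes were called. Summed macrophage markers were 251 to 379 FPKM in LA liver and 191 to 223 FPKM in PF liver, and 2 of 9 tested rose (Cd163 and Clec4f, both at 0.65), with a list median of 0.48, although Emr1 and Marco were listed at 0 in every library. Of 8 hepatocyte markers 2 fell (Fga, -0.53, and Fgg, -0.50), with a list median of -0.31. Summed cholangiocyte markers were 20.8 to 23.0 FPKM in LA liver and 17.8 to 24.4 FPKM in PF liver, with 0 of 3 called. Of the stellate cell and fibroblast markers 1 of 7 fell, and of the endothelial markers 1 of 5. None was called among 5 adipocyte markers, 1 T and NK cell marker and 1 mesothelial marker tested. Clec4f marks Kupffer cells, and Gstp1 is known in normal rat liver from bile duct cells. The part of these markers in the Gstp1 result was not tested.

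Genes that supply, export and regulate conjugation were read from 6 lists, beside the 4.48% of all genes called in liver. Of 17 NRF2 targets outside the set, 3 rose and 1 fell, with a list median of 0.16. Akr7a3, an aldehyde reductase that acts on aflatoxin dialdehyde, averaged 168 ± 39.3 FPKM in LA liver and 42.7 ± 8.68 FPKM in PF liver (log2 fold change 1.94, limma adjusted p = 0.000451), and the sulfiredoxin gene Srxn1 rose by 0.72. The third was Gclm, the regulatory subunit of the glutathione-making ligase, at 102 ± 9.54 FPKM in LA liver and 75.0 ± 8.64 FPKM in PF liver (0.44, limma adjusted p = 0.0309). Tkt, of the pentose phosphate pathway, fell by 0.78 on the log2 scale. The glutathione list had 1 of 12 higher (Gclm) and 1 lower (Chac2, which degrades glutathione, -0.40).

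Ugdh, which makes UDP-glucuronate for the UGTs, was the 1 of 8 supply genes that rose, to 83.4 ± 5.62 FPKM in LA liver, against 62.1 ± 1.82 FPKM in PF liver (log2 fold change 0.42, limma adjusted p = 0.00852). Of 11 genes of PAPS supply and sulphate handling 0 passed, with a list median of -0.08. Among 6 exporters, Abcc4, which exports glucuronides and sulphates (0.51), and the drug efflux pump gene Abcb1a (0.71) rose, and Abcg2 (-0.58) fell. All 3 were low. Abcc4 averaged 1.80 ± 0.407 FPKM in LA liver and 0.952 ± 0.121 FPKM in PF liver, close to the minimum of 1 FPKM. Abcb1a averaged 3.81 ± 0.434 FPKM in LA liver and 1.98 ± 0.621 FPKM in PF liver, and Abcg2 4.43 ± 0.793 and 7.12 ± 1.34 FPKM. Of 17 regulators Nr1i3, the xenobiotic sensor CAR, rose to 6.12 ± 2.05 FPKM in LA liver, against 2.92 ± 0.615 FPKM in PF liver (0.83, limma adjusted p = 0.0357). The NRF2 gene Nfe2l2 differed by 0.03 and the aryl hydrocarbon receptor gene Ahr by -0.42 (limma adjusted p = 0.932 and 0.0517).

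In fat 0 of 31 members tested differed by feed in limma, in a comparison where 0.0174% of all 11501 genes were called (0.00869% higher, 0.00869% lower). An unadjusted p under 0.05 was reached by 1 of the 31 members, against 451 of the 11501 genes. The members tested were 18 GSTs, 6 UGTs and 7 SULTs, and no gene separated the groups, against 2.08% of all genes. Gstp1 was that member, at 306, 183, 226 and 196 FPKM in LA fat, against 163, 166, 161 and 188 FPKM in PF fat. LA replicate 1 was far above the rest, and LA replicate 2 lay below PF replicate 4 (log2 fold change 0.40, SE 0.15, limma adjusted p = 1.00). Without LA replicate 1 the log2 fold change was 0.25. Summed macrophage markers were 2033 to 3774 FPKM in LA fat, highest in that same replicate, and 1607 to 2486 FPKM in PF fat. Summed stellate cell and fibroblast markers were 1926 to 2791 FPKM in LA fat, again highest in LA replicate 1, and 1929.8 to 2332 FPKM in PF fat, and adipocyte markers too were highest in that library. The part of these markers in the Gstp1 values was not tested.

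For the UGTs that rose in liver no difference was detected in fat. Ugt1a6 was at 39.5, 37.7, 40.9 and 42.0 FPKM in LA fat, against 37.4, 35.9, 41.2 and 41.4 FPKM in PF fat, a difference of 0.04 with a 95% interval of -0.15 to 0.22. Ugt1a7c averaged 17.4 ± 3.37 FPKM in LA fat and 17.4 ± 2.68 FPKM in PF fat. Its interval of -0.33 to 0.33 reached into its liver interval of 0.29 to 0.94. Sult1a1 differed by 0.17 (-0.13 to 0.46). Genes under 2% of their liver level varied widely between fat libraries. Gsta2 was at 3.12, 2.46, 6.99 and 0.314 FPKM in LA fat, against 5.06, 4.94, 2.95 and 10.6 FPKM in PF fat, with PF replicate 4 highest and LA replicate 4 lowest, as for the hepatocyte markers. The differences of Gsta2, Ugt2b, Sult1e1 and Sult2al1 were -0.87, -0.76, -0.70 and -0.69, none called, and all 10 hepatocyte markers tested were below 0 as well (list median -0.74). Gstm7, at -0.31, and Ugt2b37, at -0.53, were the other named members with small p in their classes, along with Ugt2b36, at -0.43. In fat 10 members were too low to be tested, Sult1c2 and Ugt1a1 among them. None of the 6 supply, export, regulator and NRF2 lists had a gene called in fat.

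Whether the feed effect differed between tissues was tested directly, as the LA over PF change in liver minus that in fat over all 16 libraries. Of 41 members 2 passed, Sult1c2 and Ugt1a6, both higher in liver, where 0.381% of all genes were called (0.232% higher). For Sult1c2 the difference was 3.28 (SE 0.33, 95% interval 2.59 to 3.98, limma adjusted p = 8.84e-05). In fat Sult1c2 was at 0.0484, 0.0827, 0.118 and 0 FPKM under LA, against 0.289, 0.116, 0.0949 and 0.0271 FPKM under PF, so no fat library reached 1 FPKM. On this scale a gene so low in fat can hardly differ there, and the value repeats the liver change of 3.20 rather than measuring a response in fat. For Ugt1a6 the difference was 1.29 (SE 0.24, 95% interval 0.79 to 1.80, limma adjusted p = 0.0268). That call was lost without LA liver replicate 2, LA fat replicate 2, PF fat replicate 1 or PF fat replicate 4 (adjusted p = 0.0735, 0.0586, 0.0650 and 0.0591), and with no filter on low values (0.0564). It was also lost when replicate number was fitted as a block, although the numbers are not known to pair the samples.

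Gstp1 did not pass this test, with a difference of 0.81 and a 95% interval of 0.13 to 1.48 (limma adjusted p = 0.459). Without LA liver replicate 1 it was 1.10 and passed (adjusted p = 0.0245). For Ugt1a5, Gsta5, Ugt1a7c and Ugt1a1 the differences were -0.81, 1.57, 0.62 and -0.44 (limma adjusted p = 0.139, 0.229, 0.378 and 0.841). Sult1b1 and Sult2al1 gave 0.89 and -0.02 (limma adjusted p = 0.520 and 0.965). Ugt1a5, Gsta5 and Ugt1a1 were too low in fat to be tested there, so for them this test can hardly measure a response in fat. None of these liver calls was shown to be particular to liver. Outside the set, Akr7a3 was the list gene that passed, with a difference of 1.86 (limma adjusted p = 0.00667).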

How the data were processed

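RNA sequencing was done on 16 libraries in 4 groups of 4. Per the labels' protocols, RNA came from TRIzol extracts cleaned on RNeasy columns, and TruSeq V2 kits, which do not mark strand, were used for the libraries. Per the submitters' processing notes, the reads went through CASAVA 1.8.2, TopHat and Cuffdiff. In the sources used here no build or annotation is given. The authors deposited FPKM, with 1 value per symbol and library and no counts, so count tests were not used, depth is known only in relative terms and no counting intervals are given. FPKM are shares of a library, so abundant genes that move shift the others.

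The values, on the scale log2(FPKM + 1), were fitted with limma 3.58.1 under R 4.3.3 (trend, Benjamini-Hochberg adjustment over all genes tested). A gene was tested where 4 libraries of the fit reached 1 FPKM. A call needed an adjusted p under 0.05 and, for liver against fat, a change of over 1 on the log2 scale as well. The feed comparisons used the 8 libraries of a tissue, the tissue comparisons the 8 of a feed, and the difference of effects all 16 as independent libraries. Cross-tissue p-values therefore ignore shared rats. The labels call the replicates biological. Exact permutation tests used 70 arrangements of 4 against 4.

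The members and gene lists were chosen with earlier results of these data known. Named genes were Gstp1, Sult1c2, every member called in a feed comparison or the difference, and per class the 3 with the smallest p in each feed comparison, the 3 highest in each tissue and the 2 with the largest tissue difference in each direction in PF rats. Other members are named for comparison, chosen after their values were seen, as are list genes that passed. Of the 41 members, 36 matched RefSeq (GRCr8) by symbol, 4 by synonym and 1, Ugt2b17, not. The alternatives tried were median centring, no filter on low values, a pseudocount of 0.1, a replicate block, 1 model for the 16 libraries, a limit of 0.1 on the adjusted p, and each library left out. Figures were drawn with matplotlib 3.10.9.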

Additional observations from a re-analysis of the deposited data

Results flagged for a closer look

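In 4 of 91 sets of 4 libraries examined over the 25 named genes, 1 library stood far from the other 3. Chance alone flags about 1 set in 20, no less than the share found here. Sult2a1 was at 7.86 FPKM in LA fat replicate 3, against 0.739 to 1.79 FPKM in the other LA fat libraries. Gsta5 was at 1.64 FPKM in the same library, against 0.143 to 0.359 FPKM. Sult2al1 was at 7.73 FPKM in PF fat replicate 4, against 2.27 to 2.93 FPKM in the other PF fat libraries. Gstm7, a mu-class GST, was at 15.1 FPKM in that library, against 8.91 to 9.25 FPKM. All 4 cases lay in fat, in the libraries of each group with the highest hepatocyte marker levels (0.834% of the liver level in LA fat replicate 3 and 0.974% in PF fat replicate 4). Gstm7 was not among the genes under 2% of their liver level, with a median of 12.7% over the fat libraries. Epididymal epithelium markers summed to 9.63 FPKM in PF fat replicate 4 (nearly all of it Lcn5) and to at most 0.00838 FPKM in any other fat library. Of the 8 such markers in the files, 5 were at 0 in every PF fat library. The part of liver-type or epididymal RNA in these 4 values was not tested.

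The limma test of the difference between the feed effects in liver and fat called 2 members. For Sult1c2 the effect in liver minus that in fat was 3.28 on the log2 scale (adjusted p = 8.84e-05). It kept its call in each of the 21 alternatives, but Sult1c2 was under 1 FPKM in every fat library, so the value repeats its liver change and measures no response in fat. For Ugt1a6 it was 1.29 (adjusted p = 0.0268), a call that 6 alternatives removed.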

How the results depend on the processing

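Of the values of single named genes under all alternatives, the liver feed comparison had 104 of 140 on the same side of the threshold as reported, 34 that lost a call and 2 that gained one, and 0 changed direction. In the fat feed comparison all 126 kept their side, and for the difference between tissues 56 of 63, with 6 calls lost and 1 gained. In the PF and LA tissue comparisons 1 of 170 lost its call, and 1 of 160 reversed: Ugt1a6 in liver against fat under LA was 0.53 after median centring. Fits in which a gene was not tested are not among these values.

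The number of members called in liver (9) was 5 with no filter on low values and 5 to 11 with single libraries left out, lowest without LA replicate 2, 3 or 4 or PF replicate 2. Calls over all genes in liver (435) were 848 at an adjusted p under 0.1 and 208 to 404 with libraries left out, lowest without LA replicate 2 and also down to 267 without PF replicate 1. In fat, calls over all genes (2) were 1 with a pseudocount of 0.1, 7 in 1 model of 16 libraries and 0 to 2 with libraries left out, while those of members were 0 throughout. For the difference between tissues, calls over all genes (46) were 22 with no filter, 94 at an adjusted p under 0.1 and 19 to 60 with libraries left out, lowest without PF fat replicate 1. Those of members (2) were 1 with no filter and 1 to 3 with libraries left out. Between tissues, members called ranged from 28 to 34 in PF rats and 25 to 32 in LA rats with libraries left out, and all genes from 3932 to 5136 and 3907 to 5055. The minimum of 4 libraries at 1 FPKM also held for these fits. A gene at the minimum in 1 tissue alone could therefore drop out of testing when a library of that tissue was left out. In LA rats the count of members was 25 without any 1 LA liver replicate and 32 without any 1 LA fat replicate. Other causes were not tested.

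To look for pairs, the group mean of each gene was first subtracted, and only what remained was correlated. On these remainders same-numbered libraries correlated at -0.003 to 0.152 between LA and PF liver and at -0.43 to -0.06 between LA and PF fat. Between liver and fat of a feed the values were -0.22 to 0.29, and the same number was the best match for 5 of 8. Since not every pair was above 0.1, the numbers were not taken to pair the samples, although liver and fat came from the same rats. With the replicate block, 476 genes and 10 members were called in liver, 1 gene and 0 members in fat, and 32 genes and 1 member (Sult1c2) for the difference between tissues, where the adjusted p of Ugt1a6 was 0.0608. Relative depth differed little, and genes under 1 FPKM in most libraries could not be tested.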

Other observations

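In RefSeq (GRCr8) 9 of the genes lie in a single cluster, each within 1 Mb of the next: Sult1e1, Sult1d1, Sult1b1, Ugt2a3, Ugt2b, Ugt2b5, Ugt2b37, Ugt2b36 and Ugt2b34. Of the 8 tested in liver, Sult1b1 was the one called, with a log2 fold change of 0.63 for LA over PF. Ugt2a3 was at 0.62, Ugt2b36 at 0.30, Ugt2b5 at 0.10, Ugt2b and Ugt2b34 at 0.07, Sult1e1 at -0.07 and Ugt2b37 at -0.08. In the same cluster Sult1d1 was listed at 0 in every liver library.

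Among the symbols left out for low values, Ugt1a9 was at 0.480, 0.540, 0.725 and 0.586 FPKM in LA liver, against 1.07, 0.716, 1.21 and 0.851 FPKM in PF liver. Ugt1a3 was at 0, 0.179, 0.241 and 0.0972 FPKM in LA liver, against 0.357, 0.357, 0.602 and 0.753 FPKM in PF liver. Gstm6 reached 1.66 FPKM in PF fat replicate 4 and 0.369 FPKM at most in any other library. These genes were not tested.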
